A study of Homo sapiens with 4 samples.

Results

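The BCL2 family sets the threshold at which mitochondria release cytochrome c, and 10 of its genes were followed here after forced expression of BTG2, an adaptor protein through which the CCR4-NOT deadenylase reaches messenger RNA. The members were taken by gene symbol: BCL2, BCL2L1, MCL1, BAX, BAK1, BCL2L11, BID, BIK, BBC3 and PMAIP1. Each of the 10 had 1 row among the 11597 genes of the authors' deposited table. MOLM13 cells, an established acute myeloid leukaemia line with a KMT2A fusion, received by lentivirus either the empty vector (2 libraries, genotype given as WT) or the BTG2 cDNA (2 libraries, genotype given as BTG2 OE). The vector drives its insert from an EF1α promoter, with puromycin resistance and ZsGreen, and both groups were harvested 3 days after transduction. The labels name 1 cell line and mention neither a sort nor a drug selection, so how many cells carried the vector is unknown. The design text gives the role of BTG2 in mRNA stability as the question, and the table holds steady-state RNA, not decay rates. The libraries held poly(A) RNA, and whether tail length affected its capture was not tested.

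The table gives for each gene a mean normalized count over the 4 libraries, a log2 fold change that is positive where BTG2 was higher, its standard error (SE) and an adjusted p. A gene was called at an adjusted p under 0.05. No value per library was analysed, so the depth of each library and the number of libraries that showed a direction are unknown. The labels do not say that the 2 libraries of a group came from separate cultures, and the p-values may then measure technical spread alone. As a check of the labels, BTG2 itself stood at a log2 fold change of 5.01 (SE 0.09) per the authors' deposited table, a value that sums reads of the cDNA and of the cell's own gene. Of 12 myeloid leukaemia markers 11 had a row, led by LYZ and CEBPA with mean normalized counts of 6277 and 4405 in the authors' deposited table, and CD14 was not analysed here. Of these 11, 3 fell (MPO at -1.14, LYZ at -0.39 and CEBPA at -0.26) and 2 rose (HOXA9 at 0.53 and FLT3 at 0.23) by log2 fold change per the authors' deposited table, and their part in the results was not tested. Of 11 markers of other cell types 2 had a row, KRT18 at a mean normalized count of 421 and PECAM1 at 65.7 in the authors' deposited table, and neither was called.

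Proteins of this family act on the outer mitochondrial membrane. The anti-apoptotic proteins BCL2, BCL-XL and MCL1 hold the effectors BAX and BAK1 inactive, and the BH3-only proteins bind the anti-apoptotic proteins or engage the effectors directly. Once active, BAX and BAK1 open pores through which cytochrome c leaves, and caspases follow. Myeloid leukaemia cells often rely on BCL2 or MCL1 for survival, which is why BCL2 inhibitors are given in this disease.

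With BTG2, 2 BH3-only genes fell and no member rose. BIK was lower by about 31.0% and PMAIP1 by about 25.2%, and the other 8 members did not pass the test. The 2 called of 10 members compare with 940 of 11597 genes (8.11%) called in either direction, 4.47% lower and 3.64% higher. Among the 5799 genes whose mean count reached the median of 151, where 9 of the 10 members lay, 13.6% were called. The median log2 fold change was -0.01 over the members and 0.00026 over all listed genes, with 5 members above 0 and 5 below.

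**Figure D1:**
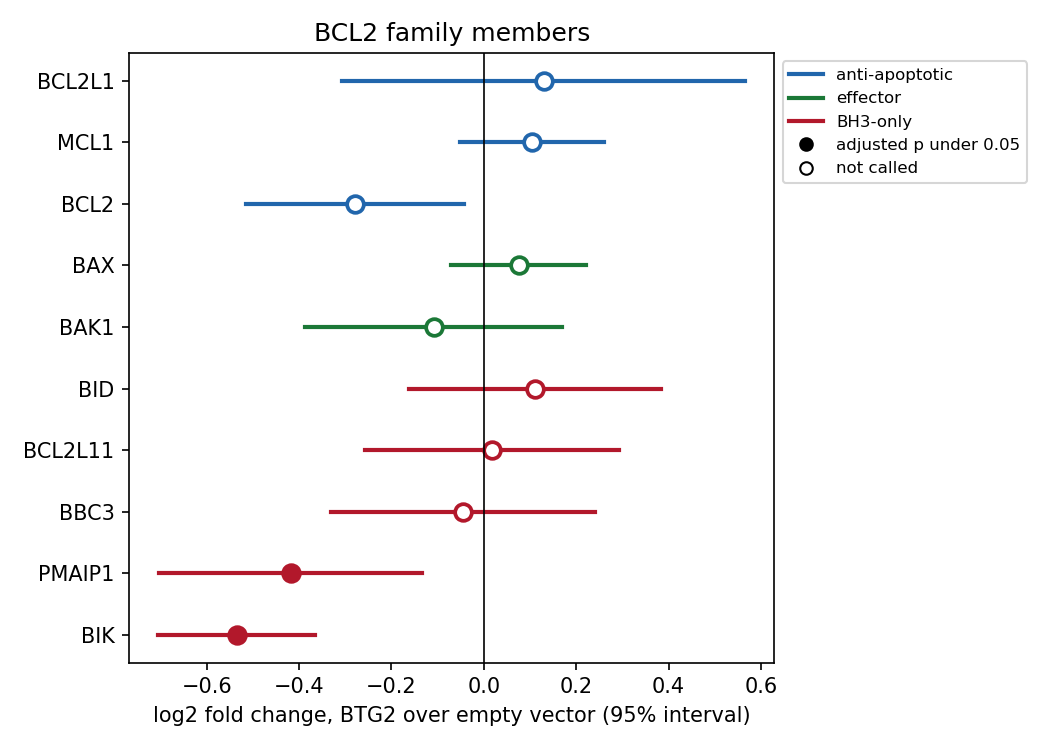
Log2 fold change of each member, BTG2 over empty vector (x axis), with lines for the 95% interval computed from the authors' standard error and colours for the role in the family. Filled points mark the 2 genes with an adjusted p under 0.05, BIK at -0.54 and PMAIP1 at -0.42, and the interval of BCL2 also lies below 0.

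BIK codes for a BH3-only protein of the endoplasmic reticulum that binds the anti-apoptotic members. Its mean normalized count was 747 and its log2 fold change -0.54 (SE 0.09, adjusted p = 4.81e-08) per the authors' deposited table. The 95% interval ran from -0.70 to -0.37, which is 0.614 to 0.776 of the empty-vector level. Tested against a null of log2 fold changes up to 0.25 in size, BIK kept its call (Benjamini-Hochberg adjusted p = 0.0310, from the authors' fold change and SE), and it was the only gene among the members and the 7 pathway lists to do so. By size of the test statistic BIK stood at rank 141 of 11597 genes, and at rank 77 counted from the most negative. It lies on chromosome 22 (hg38, 43110748 to 43129712, plus strand), where GENCODE release 29 lists 1 coding transcript of 5 exons, with no exon shared with another gene.

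PMAIP1 codes for NOXA, a BH3-only protein that binds MCL1 and promotes its degradation. In the authors' deposited table its mean normalized count was 242 and its log2 fold change -0.42 (SE 0.15, adjusted p = 0.0491), with a 95% interval from -0.70 to -0.13. The call is marginal, since only 2 of the 940 called genes had a larger adjusted p. Recentred on the median of the abundant genes, which itself stood at -0.03, PMAIP1 was at -0.39 with a Benjamini-Hochberg adjusted p of 0.0760, from the authors' fold change and SE. The gene lies on chromosome 18 (hg38, 59899948 to 59904306, plus strand) and its coding sequence of 162 bases is among the shortest listed, with 0.114% of 10487 coding genes below it.

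The other BH3-only genes were close to 0. BBC3, which codes for PUMA, a stress-induced protein that binds all the anti-apoptotic members, had a log2 fold change of -0.05 (SE 0.15) per the authors' deposited table, with a 95% interval from -0.33 to 0.24. BCL2L11, which codes for BIM, a direct activator of BAX and BAK1, stood at 0.02 (SE 0.14, interval -0.26 to 0.29) per the authors' deposited table. For BID, which is cut by caspase-8 and links death receptors to mitochondria, the authors' deposited table gives 0.11 (SE 0.14, interval -0.16 to 0.38). Their mean normalized counts of 261, 278 and 330 in the authors' deposited table set the precision, and at these standard errors a log2 fold change of 0.40 to 0.42 in size would have been needed for a call.

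None of the 3 anti-apoptotic genes was called, and BCL2 was the nearest to it. BCL2 had a mean normalized count of 367 and a log2 fold change of -0.28 (SE 0.12) per the authors' deposited table, with an adjusted p of 0.158 and an unadjusted p of 0.0204. Its 95% interval, from -0.51 to -0.04, lay below 0, and a size of 0.35 would have been needed for a call. MCL1, a short-lived protein encoded by a short-lived messenger RNA, stood at 0.10 (SE 0.08, adjusted p = 0.578) at a mean normalized count of 1088 in the authors' deposited table. The MCL1 interval, from -0.05 to 0.26, reached further above 0 than below it. BCL2L1, which codes for BCL-XL, was measured with the least precision of the members, at 0.13 (SE 0.22, interval -0.31 to 0.57) and a mean normalized count of 100 in the authors' deposited table. A change of 0.64 in size would have been needed to call BCL2L1.

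Both effectors stayed uncalled with narrow to moderate intervals. BAX stood at 0.08 (SE 0.07, adjusted p = 0.725) at a mean normalized count of 1147 in the authors' deposited table, with an interval from -0.07 to 0.22. BAK1 had a log2 fold change of -0.11 (SE 0.14, adjusted p = 0.830) at a mean normalized count of 268 in the authors' deposited table, with an interval from -0.39 to 0.17. A p that misses the threshold does not show that a level is unchanged, and these intervals bound what the data allow. For 6 of the 10 members (BAX, BAK1, MCL1, BID, BCL2L11 and BBC3) the whole interval lay within 0.5 of 0, and for all 10 it lay within 1.

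Ordered by log2 fold change, the members ran from BIK and PMAIP1 through BCL2, BAK1, BBC3, BCL2L11, BAX, MCL1 and BID to BCL2L1. The interval of BIK did not meet those of BBC3, BCL2L11, BID, BCL2L1, MCL1 and BAX, and it overlapped those of PMAIP1, BCL2 and BAK1. The interval of PMAIP1 was apart from those of MCL1 and BAX only. The interval of BCL2 overlapped those of all 9 other members. Among the members other than BIK and PMAIP1, all intervals overlapped. Overlap alone does not show that a difference lies within its error, and whether the fold changes of these members differ was not tested. Standard errors of the members were 0.943 to 1.04 times the median of genes whose mean count lay within a factor of 1.2 of their own, so their precision was ordinary for their abundance. Mean counts, here also called abundance, are given for precision and for a gene's place among all genes. They were not read as relative amounts of RNA between genes, because the reads behind them may or may not scale with transcript length.

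**Figure D2:**
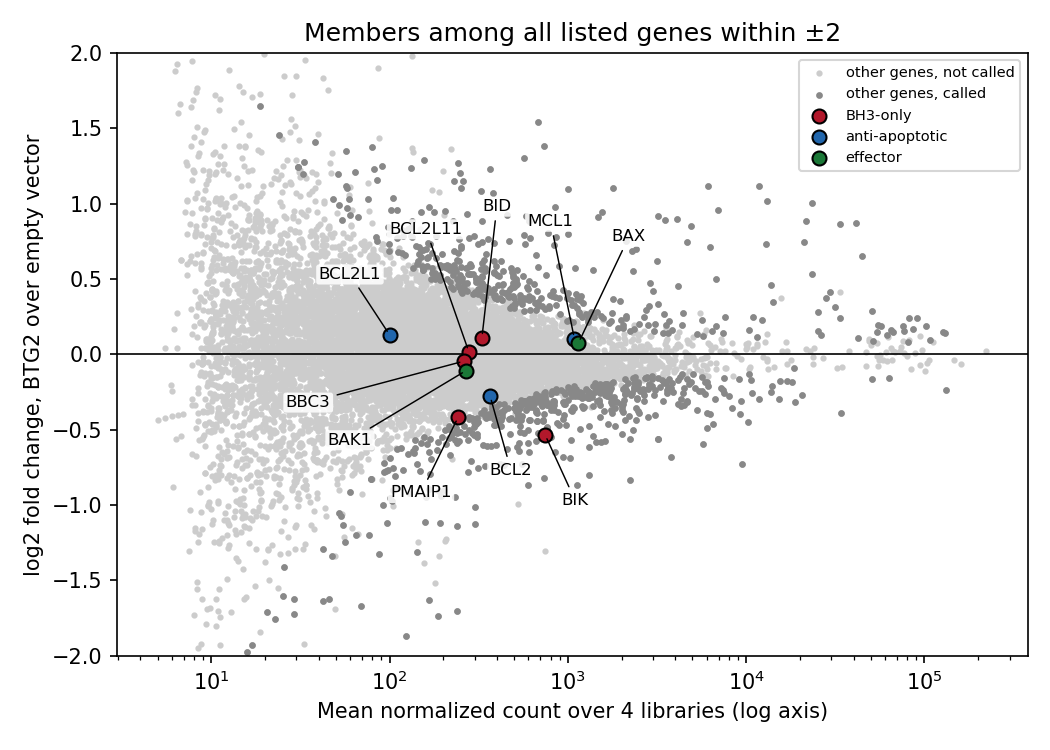
Log2 fold change, BTG2 over empty vector (y axis, cropped at 2 in size), against the authors' mean normalized count on a log axis, with 1 point per gene and dark grey for called genes. BIK, at a mean count of 747, lies within the called genes, PMAIP1 lies at their edge and BCL2 just inside the uncalled band.

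The values are for whole genes, so splice forms with opposed functions are summed. GENCODE release 29 lists 9 coding transcripts for BCL2L1, whose long and short forms inhibit and promote apoptosis, 3 for MCL1 and 17 for BCL2L11. Exons of BCL2L11 share 727 bases with MIR4435-2HG on the opposite strand, a long non-coding RNA at -0.06 (adjusted p = 0.938) per the authors' deposited table, and exons of BCL2L1 share 1424 bases with the antisense gene ABALON. The sources used here do not say whether reads were counted by strand, so reads of these pairs may not be separated. BAK1 has 2 processed pseudogenes in GENCODE, and neither had a row.

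AUUUA pentamers in 3′ UTRs are the core of AU-rich elements, through which decay factors can recruit the same deadenylase, and they are shown for the 2 genes that fell and for the 2 anti-apoptotic genes with the most of them. Each line gives the 30 bases of the 3′ UTR that hold the most pentamers, read from GENCODE transcripts in DNA letters, 5′ to 3′, with ATTTA in capitals. The windows lie at chr22:43129402-43129431 (BIK, plus strand), chr18:59903967-59903996 (PMAIP1, plus strand), chr18:63128353-63128382 (BCL2, minus strand) and chr1:150576217-150576246 (MCL1, minus strand) of hg38.
BIK: gatgcctttttatATTTAaaccccgagata
PMAIP1: aattttATTTAttttgcctATTTAtaatta
BCL2: gaaaaaaagATTTATTTATTTAagacagtc
MCL1: gacctaATTTAactggtgaaATTTAaagtg
BIK held 1 pentamer in a 3′ UTR of 407 bases, PMAIP1 5 in 1553, BCL2 13 in 5279 and MCL1 10 in 2819. The BCL2 window holds 3 overlapping pentamers, whereas the single one of BIK stands alone.

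The 2 genes that fell did not share a 3′ UTR of one kind. The 3′ UTR of BIK was short, with 24.4% of 10487 coding genes below it, and that of PMAIP1 was longer than 61.9% of them. Per kb of 3′ UTR, BIK had 2.46 pentamers and PMAIP1 3.22, against a median of 1.60 over the 10397 genes with a 3′ UTR. MCL1, which was not called, had the highest density of the members at 3.55, and BCL2 stood at 2.46. BCL2L1 held 3 pentamers, BID 2 and BCL2L11 1, and BAX, BAK1 and BBC3 held 0. In all, 7 of the 10 members had at least 1 pentamer, as did 69.6% of the 10397 genes. Transcript GC content ran from 37.2% in PMAIP1, with 4.75% of genes below it, to 69.7% in BBC3, with 99.5% below it. These counts describe 1 annotated transcript per gene, and which transcripts these cells made was not tested. Whether the pentamers bear on the fold changes was not tested either.

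**Figure D3:**
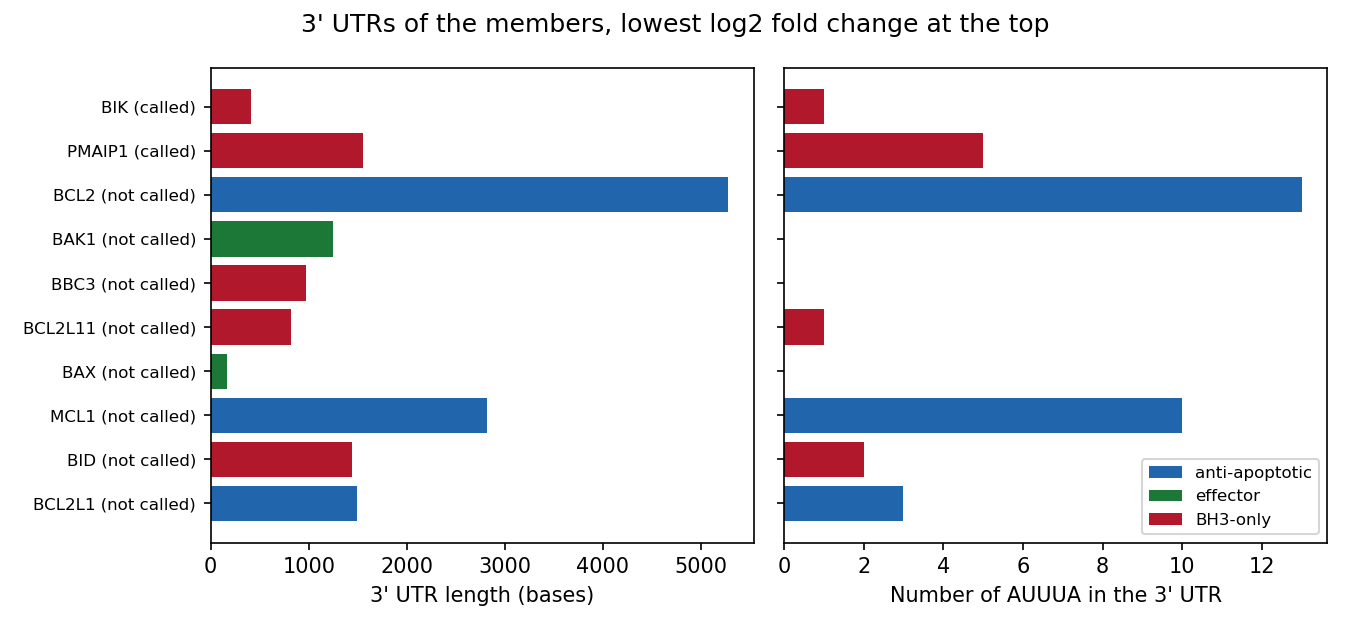
Length of the 3′ UTR in bases (left) and number of AUUUA pentamers in it (right) for 1 annotated transcript of each member, ordered from the lowest log2 fold change at the top, with colours for the role. BCL2 (5279 bases, 13 pentamers) and MCL1 (2819 bases, 10 pentamers) have the longest bars. The called genes are BIK (407 bases, 1 pentamer) and PMAIP1 (1553 bases, 5 pentamers). Whether length or pentamers bear on the fold changes was not tested.

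Transcription factors known to act on BH3-only genes included 3 that fell and 0 that rose, of 10 listed, where 4.47% of all genes fell and 3.64% rose. ATF4 and MYC were among the most abundant genes, with 98.5% and 98.3% of genes below them in mean count, where small changes pass the test. DDIT3, which codes for the stress factor CHOP, an activator of BCL2L11 and BBC3, had a log2 fold change of -0.60 (SE 0.13, adjusted p = 0.000128) per the authors' deposited table. Exons of DDIT3 share 355 bases with MARS1 on the opposite strand, which was itself lower at -0.42 in the authors' deposited table, and the part of such reads was not tested. ATF4, an activator of PMAIP1 and DDIT3 in the integrated stress response, was lower by a small amount, with -0.19 (SE 0.04, adjusted p = 4.58e-05) per the authors' deposited table. MYC fell by 0.13 on the log2 scale (SE 0.05, adjusted p = 0.0441) per the authors' deposited table, and was no longer called after recentring (-0.11, Benjamini-Hochberg adjusted p = 0.158). The median of these 10 genes was -0.08, against 0.00026 over all listed genes.

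Because ATF4, DDIT3 and MYC were the listed factors that fell, the promoters of the members were searched on both strands for the letters their families bind. RefSeq promoters of GRCh38.p14, from 250 bases before to 50 after the annotated start, were matched by symbol for 8 of the 10 members; BIK and MCL1 were not searched. The full cyclic AMP response element TGACGTCA was found in 0 of the 8, against 1.85% of 35116 promoter windows, and the C/EBP-ATF site TGATGCAA in 0, against 0.866%. The half-site TGACG, which lies within the cyclic AMP response element, was found in 4 (PMAIP1, BCL2, BCL2L1 and BAX), against 24.6% of windows, where BCL2L1 had 2 windows and BID 5. The E-box CACGTG was found in 3 (BAX, BBC3 and BID), against 7.26% of windows. In BID the E-box lies in 2 overlapping windows. The 8 members had 13 windows in all, so these counts of genes do not compare directly with shares of windows. The promoter of PMAIP1, the one searched member that fell, is chr18:59899746-59900045 on the plus strand, with the half-site in capitals as it reads on this strand, its first base at position -55 from the start.
PMAIP1: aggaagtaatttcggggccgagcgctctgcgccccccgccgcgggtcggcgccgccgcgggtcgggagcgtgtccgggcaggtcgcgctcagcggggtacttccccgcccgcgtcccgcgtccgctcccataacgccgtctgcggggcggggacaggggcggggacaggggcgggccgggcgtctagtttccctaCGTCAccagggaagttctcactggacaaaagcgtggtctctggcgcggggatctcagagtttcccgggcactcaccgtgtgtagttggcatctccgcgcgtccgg
These matches describe letters, and no binding was measured. BCL2, BCL2L1 and BAX hold the half-site too and were not called, at log2 fold changes of -0.28, 0.13 and 0.08. The interval of BCL2 ran from -0.51 to -0.04, and BIK was not searched. Whether the half-site bears on the fold changes was not tested.

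Of the other BCL2 family genes, 9 of 13 had a row, and 1 fell and 0 rose. The share called was 11.1%, against 8.11% of all genes. BCL2L12, a BCL2-like protein reported to restrain apoptosis, had a log2 fold change of -0.36 (SE 0.11, adjusted p = 0.0129) per the authors' deposited table. Its exons share 734 bases with IRF3 on the opposite strand, which stood at 0.07 and was not called in the authors' deposited table. BCL2L13, a mitochondrial BCL2-like protein with a role in mitophagy, was next by test statistic at 0.23 (SE 0.13, adjusted p = 0.345) per the authors' deposited table. BCL2A1, an anti-apoptotic member induced by NF-kappaB, stood at -0.59 with an SE of 0.40 at a mean normalized count of 31.7 per the authors' deposited table, and was not called. The BH3-only genes BAD (-0.29, SE 0.21) and BMF (-0.01, SE 0.20) were not called in the authors' deposited table, and HRK had an SE of 2.33 there and carries no usable fold change. The 9 genes had a median of -0.01.

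Downstream of the mitochondrion, 1 of 11 apoptosome and caspase genes rose and 0 fell. This share, 9.09%, was near the 8.11% called over all genes. CASP2, an initiator caspase that can cleave BID, was higher by 0.36 on the log2 scale (SE 0.11, adjusted p = 0.0227) per the authors' deposited table. Cytochrome c, CYCS, was at -0.06 (SE 0.11) and its adaptor APAF1 at -0.01 (SE 0.18) per the authors' deposited table. The median over the 11 genes was 0.09.

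By the authors' test, no inhibitor of apoptosis or antagonist was called among 8 of 10 with a row, and 1 had an unadjusted p under 0.05. That gene was ENDOG, a mitochondrial nuclease, at -0.22 (SE 0.10, adjusted p = 0.206) per the authors' deposited table, followed by DIABLO, which relieves caspases of inhibition, at 0.20 (SE 0.12, adjusted p = 0.421). XIAP, the direct caspase inhibitor, had an SE of 4.57 in the authors' deposited table at a mean normalized count of 47.5, so its change was not measured. Over all 11597 genes, 8.11% were called by the authors' test and 2036 had an unadjusted p under 0.05. A list of 8 or 9 genes with 0 calls is therefore no finding about that list. In the death receptor pathway, which reaches this family through BID, 0 of 9 genes were called by the authors' test and 1 had an unadjusted p under 0.05. It was the TRAIL receptor gene TNFRSF10B, at 0.23 (SE 0.10, adjusted p = 0.154), and TNFSF10, the ligand TRAIL, stood at -0.81 (SE 0.42, adjusted p = 0.305) per the authors' deposited table.

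Among mitochondrial partners of BAX and BAK1, 1 of 12 rose and 0 fell, with a median of 0.08. This is 8.33% called, against 8.11% of all genes. The adenine nucleotide carrier gene SLC25A6 rose by 0.12 on the log2 scale (SE 0.04, adjusted p = 0.0353) per the authors' deposited table. With 98.4% of genes below it in mean count, a small change passes the test. SLC25A6 has 6 pseudogenes in GENCODE, none with a row. PPIF, the cyclophilin of the permeability pore, was at -0.23 (SE 0.09, adjusted p = 0.104) per the authors' deposited table and VDAC2, which holds BAK1 at the membrane, at 0.10 (SE 0.06). Of the regulators of MCL1 protein turnover 9 of 10 had a row, 0 were called by the authors' test and 0 had an unadjusted p under 0.05. Those with the largest test statistics were the ERK phosphatase gene DUSP6 at -0.25 (SE 0.13) and the ubiquitin ligase gene MARCHF5 at -0.31 (SE 0.17) per the authors' deposited table. Over the 7 lists outside the members, 2 of 68 genes rose and 4 fell, and their median was 0.02. Of all genes, 3.64% rose and 4.47% fell, so the lists together were called about as often as other genes.

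**Figure D4:**
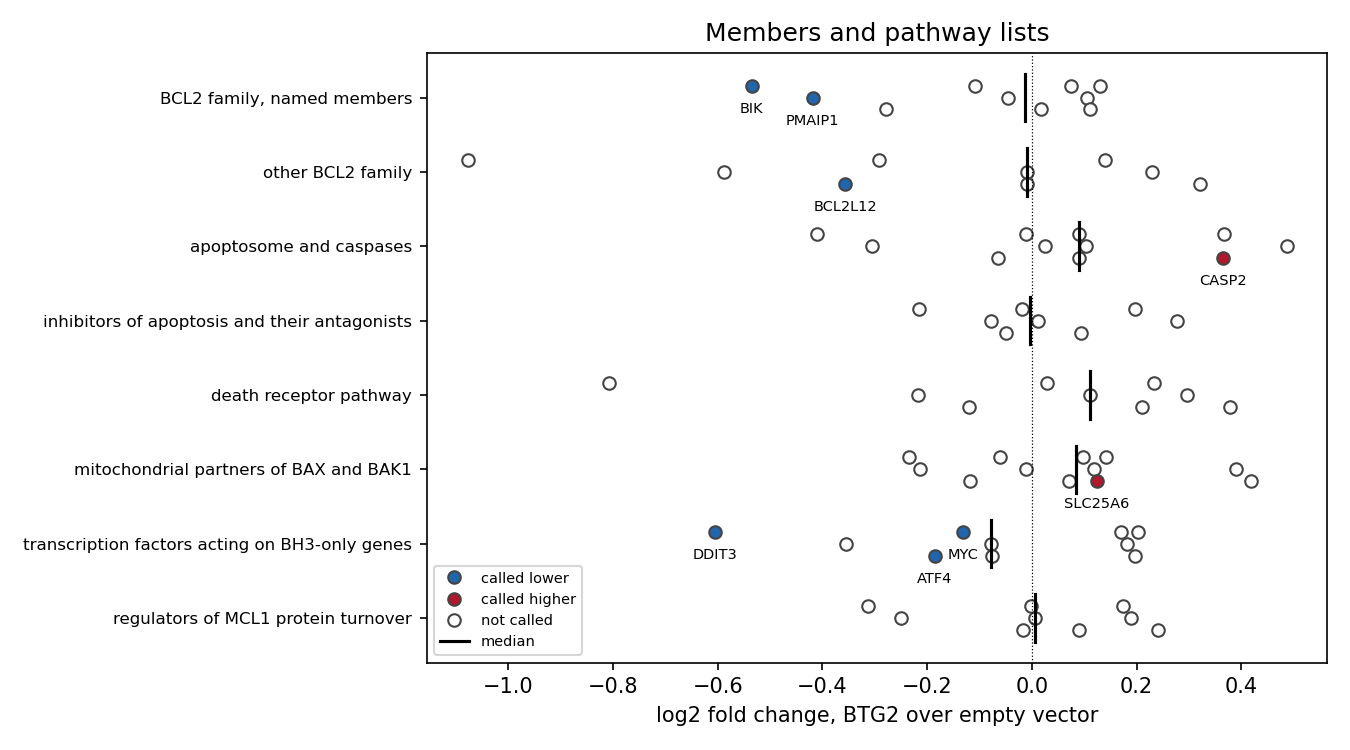
Log2 fold change, BTG2 over empty vector (x axis), of every gene with a row in the members and in the 7 pathway lists, with 1 point per gene, filled where called, and a black bar at the list's median. Points are drawn without errors. HRK (SE 2.33), XIAP (SE 4.57) and a mitochondrial partner (SE 2.32) carry no usable fold change, yet they enter their lists' medians. Called genes are BIK, PMAIP1, BCL2L12, ATF4, DDIT3 and MYC on the lower side and CASP2 and SLC25A6 on the higher side, and the medians lie between -0.08 and 0.11.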

How the data were processed

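The libraries held poly(A) RNA of MOLM13 cells, 2 with BTG2 and 2 with the empty vector, grouped by sample title. The labels' protocols describe short paired reads from a directional kit, whereas the series title speaks of long reads. Per the submitters' processing notes, minimap2 and hg38 were used, and the sources used here name no program, normalization or filter for the comparison. The authors deposited a mean normalized count per gene (a signal pooled over the 4 libraries), a log2 fold change with its standard error, and a test statistic, a score equal to their ratio within 2.72e-07. The deposited p-value was adjusted over all 11597 genes, equal to a Benjamini-Hochberg adjustment within 1.48e-06.

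Calls rest on the authors' own test, at their adjusted p under 0.05, and p-values were recomputed from their fold changes and standard errors for the alternatives only. Intervals at the 95% level are the fold change plus or minus the normal quantile times the standard error, and the size needed for a call is the smallest called statistic, 2.88, times the standard error. Rows were matched by symbol. Named genes are the 10 members, BTG2, and of each list the called genes and the 2 of largest statistic in size, plus a few marker genes. CYCS, APAF1, BCL2A1, BAD, BMF, HRK, XIAP, VDAC2 and genes that overlap a named gene were added after their values were seen, for their role or error. Values of 2 list genes are not reported here. The members, lists and tests were chosen with earlier results of these data known, and the promoter and 3′ UTR searches after seeing the calls.

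Of the listed genes 98.3% matched GENCODE release 29 (GRCh38, the build hg38) by Ensembl identifier. One coding transcript per gene was taken, by APPRIS rank and then coding length, for 10487 genes. Alternatives were adjusted p limits of 0.01 and 0.1, a null of log2 fold changes up to 0.25 in size, recentring on the median abundant gene, and adjustment over the more abundant genes alone (mean count from the median up). The calling steps were tested on simulated data. Python 3.11.15, numpy 2.4.6, pandas 2.3.3, scipy 1.17.1 and matplotlib 3.10.9 were used.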

Additional observations from a re-analysis of the deposited data

How the results depend on the processing

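BIK was called under each of the 6 alternatives. Only recentring alters fold changes, all by the same amount (the median abundant gene stood at -0.03), and the other 5 alter the threshold, the null or the adjustment. BCL2L1 and TNFSF10 fall below the median mean count and have no value among abundant genes. With an adjusted p limit of 0.01 the calls numbered 622 over all genes, 1 among the members (BIK), and 0 each among the other BCL2 family genes, the apoptosome and caspases, and the mitochondrial partners. Against an absolute log2 fold change of 0.25 they numbered 193 over all genes, 1 among the members (BIK), and 0 in each of those lists and among the transcription factors. Recentring left 1 called member (BIK) and took the calls of PMAIP1 and MYC. With an adjusted p limit of 0.1, with adjustment over abundant genes, and with the adjustment recomputed over all genes, BIK and PMAIP1 were both called. The alternatives were followed for 26 named genes, without the marker genes and those added after their values were seen. Of these 26, PMAIP1, BCL2L12, CASP2, SLC25A6, ATF4, DDIT3 and MYC lost their call under at least 1 alternative, and none gained one. Leaving out each library was not run, because the table holds no value per library. No paired analysis was possible because the table carries no library or replicate number.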

Other observations

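Some family balances can be read as differences between 2 log2 fold changes of the authors' deposited table, with no error, because the covariance of 2 genes over the same libraries is not in it. The effector BAX relative to the BCL2 that restrains it differed by 0.35, from 0.08 and -0.28. MCL1 relative to its antagonist PMAIP1 differed by 0.52, from 0.10 and -0.42. BAK1 relative to MCL1 differed by -0.21, from -0.11 and 0.10. MCL1 relative to BCL2, the pair of anti-apoptotic genes often compared in myeloid leukaemia, differed by 0.38. Of the genes in these pairs only PMAIP1 was called, and whether the differences exceed their errors was not tested. The differences are in RNA, and protein levels were not measured.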
